A study of Mus musculus with 18 samples.

Results

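Adenocarcinomas of the mouse colorectum at 20 weeks were compared with acutely inflamed colorectal mucosa at 2 weeks, in a model of cancer that follows colitis. The comparison sets neoplasia 86 days after the last exposure to dextran sulphate sodium (DSS), an agent that injures the colonic epithelium, against injury without neoplasia. It rests on 6 of the 18 arrays of the series, 3 of carcinoma and 3 of inflamed mucosa, chosen by their labels alone. All mice were males of ICR, an outbred stock, aged 6 weeks at the start, and the labels name no engineered allele. Both groups received the colon carcinogen azoxymethane (AOM) at 10 mg/kg on day 1. The inflamed mucosa was collected on day 14, the last day of its only DSS cycle (2% in the drinking water on days 8 to 14). The carcinomas were collected on day 140, after that cycle and cycles at 1.5% on days 29 to 33 and 50 to 54. Values of 3 arrays of normal mucosa, from mice given saline and distilled water and collected on day 14, stand beside both groups for reference. Stage, age and the number of DSS cycles differ together between the groups and cannot be told apart. The labels call the arrays biological replicates without saying whether each held 1 animal or 1 lesion.

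AOM alkylates DNA, and the colon tumors that follow it often carry mutations that stabilize beta-catenin, the transcriptional effector of Wnt signaling. DSS strips the colonic epithelium and lets luminal bacteria reach the lamina propria, where neutrophils and monocytes gather and cytokines activate NF-kB and STAT3. Wnt signaling keeps crypt cells dividing and induces its own antagonists, which are therefore read as its targets. All values come from whole tissue, in which fewer cells of a type and less RNA per cell cannot be told apart.

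Levels are given on the log2(signal + 16) scale, where 4 is the lowest possible value and 6.18 is the median of all deposited signals. A principal component analysis of the 9 arrays of carcinoma, inflamed and normal mucosa placed 73.4% of the variance on the first component. The inflamed arrays lay between -94.3 and -47.1 on it, the carcinoma arrays between 24.6 and 38.7 and the normal arrays between 42.9 and 43.5. The inflamed arrays spread more than the others: replicates 1 and 2 correlated at 0.921, and each correlated with replicate 3 at 0.968 and 0.966. The mean level over 20 general epithelial genes was lowest on inflamed replicate 2, at 6.61, against 9.62 on replicate 1 and 8.49 on replicate 3. The carcinoma arrays held those genes at 10.8 to 11.1 and the normal arrays at 11.1 to 11.2. Epcam, which defines epithelium, was at 8.28 on inflamed replicate 2 and at 12.86 to 13.26 in carcinoma. The signal of the 18S ribosomal RNA control was 8.88, 8.60 and 10.3 on the inflamed arrays and 10.6 to 10.9 on the carcinoma arrays, and its part in the results was not tested.

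Promoter sequences are shown for 3 genes whose differences recur below: Defa31, an alpha-defensin gene that was high in carcinoma, Il6, a cytokine gene that was high in inflamed mucosa, and Ccnb2, a mitotic cyclin gene. Defa31 was set by rank of change, and Il6 and Ccnb2 were chosen after their values were seen. The same rank rule also set Ang4, Chil3 and Ngp, whose sequences are not shown. Each run is 300 bases of RefSeq sequence (GRCm38.p6), from 250 bases before the annotated start of the gene to 50 after it, 5′ to 3′ on the gene's strand. The Defa31 window is chr8:21191323-21191622 (plus strand), the Il6 window chr5:30012864-30013163 (plus) and the Ccnb2 window chr9:70421505-70421804 (minus). Capitals mark matches, on either strand, to 6 searched motifs: CTTTGAT (TCF/LEF), TGANTCA (AP-1), GGNNTTTCC (NF-kB), CAAAGTCCA (HNF4), TTTGAA (the cell cycle homology region) and CCAAT.
Defa31: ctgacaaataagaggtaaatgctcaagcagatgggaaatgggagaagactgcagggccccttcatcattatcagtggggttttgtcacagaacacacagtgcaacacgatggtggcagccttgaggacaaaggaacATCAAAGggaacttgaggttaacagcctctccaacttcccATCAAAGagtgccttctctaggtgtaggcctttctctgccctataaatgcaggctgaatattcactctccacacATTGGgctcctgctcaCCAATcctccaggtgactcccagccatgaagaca
Il6: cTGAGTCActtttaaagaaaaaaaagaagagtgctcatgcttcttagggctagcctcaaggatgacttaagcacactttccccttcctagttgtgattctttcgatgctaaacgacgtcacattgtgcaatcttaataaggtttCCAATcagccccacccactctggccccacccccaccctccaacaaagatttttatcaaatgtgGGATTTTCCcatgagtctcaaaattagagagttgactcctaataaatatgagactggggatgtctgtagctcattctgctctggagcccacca
Ccnb2: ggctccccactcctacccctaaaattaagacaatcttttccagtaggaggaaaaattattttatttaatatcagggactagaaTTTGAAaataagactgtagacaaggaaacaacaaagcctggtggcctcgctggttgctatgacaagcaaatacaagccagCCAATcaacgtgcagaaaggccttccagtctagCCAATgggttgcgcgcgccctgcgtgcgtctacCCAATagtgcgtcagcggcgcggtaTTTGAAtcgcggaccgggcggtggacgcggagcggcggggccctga
The Defa31 window held the TCF/LEF letters at -114 and -74 from the start and CCAAT at 1 and 17. The Il6 window held the NF-kB letters at -43, the AP-1 letters at -249 and CCAAT at -106. The Ccnb2 window held CCAAT at -87, -54 and -21 and TTTGAA at -167 and 5. Of the windows set by rank but not shown, Ang4 held the AP-1 letters at -122. Chil3 held TTTGAA at -36 and CCAAT at -223, and Ngp held CCAAT at -93. None of those windows held TCF/LEF or NF-kB letters. Among the 10314 tested genes with a RefSeq promoter, of which the first listed was searched, TTTGAA was present in 11.9% and CCAAT in 37.7%, against 75.0% (12 of 16) and 81.2% (13 of 16) of the mitosis genes described below. NF-kB letters were present in 5.9% of all promoters, in 6.1% of those of genes higher in carcinoma and in 6.4% of those lower. Among genes called with at least 8-fold differences they were present in 7.8% (8 of 102) of those higher and 16.3% (8 of 49) of those lower. The latter 8 genes were Il6, Marco, Cxcl1, Serpina3n, Selp, Cxcl3, Saa3 and Apod, of which Cxcl3 lost its call without inflamed replicate 2 or 3 or carcinoma replicate 1 or 3 (adjusted p = 0.0714 to 0.138) and Saa3 as given below. TCF/LEF letters were present in 2.6% of all promoters, 2.4% of those of genes higher in carcinoma and 3.4% of those lower. The AP-1 letters stood in 5.4%, 5.0% and 6.2% in the same order, and the HNF4 letters in 0.4%, 0.5% and 0.5%. In the 8-fold sets, TCF/LEF letters stood in 4.9% (5 of 102) of those higher and 4.1% (2 of 49) of those lower, AP-1 letters in 9.8% (10 of 102) and 12.2% (6 of 49), and HNF4 letters in 0 of either. A match describes letters only and names no binding site.

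The 2 kinds of tissue differed across a large part of the transcriptome. By limma with Benjamini-Hochberg adjustment over 12877 genes, 2716 genes (21.1%) were higher and 2734 (21.2%) lower in carcinoma, 5450 (42.3%) in all. The arrays of the groups did not overlap for 7326 genes (56.9%). At least 8-fold differences were more often increases, with 143 genes against 67, although at least 2-fold differences were nearly balanced at 1052 against 1144. The median difference over all genes was -0.003. Against normal mucosa, 38 genes were higher (0.295%) and 60 lower (0.466%) in carcinoma, while 2902 were higher (22.5%) and 3125 lower (24.3%) in inflamed mucosa. These comparisons share arrays with the main one. The carcinoma counts against normal mucosa were unsteady, at 119 higher and 164 lower without carcinoma replicate 1, 2 higher and 6 lower without normal replicate 1, 3 and 6 without normal replicate 2, 10 and 39 without normal replicate 3, 3 and 8 without carcinoma replicate 2 and 4 and 18 without carcinoma replicate 3.

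**Figure D1:**
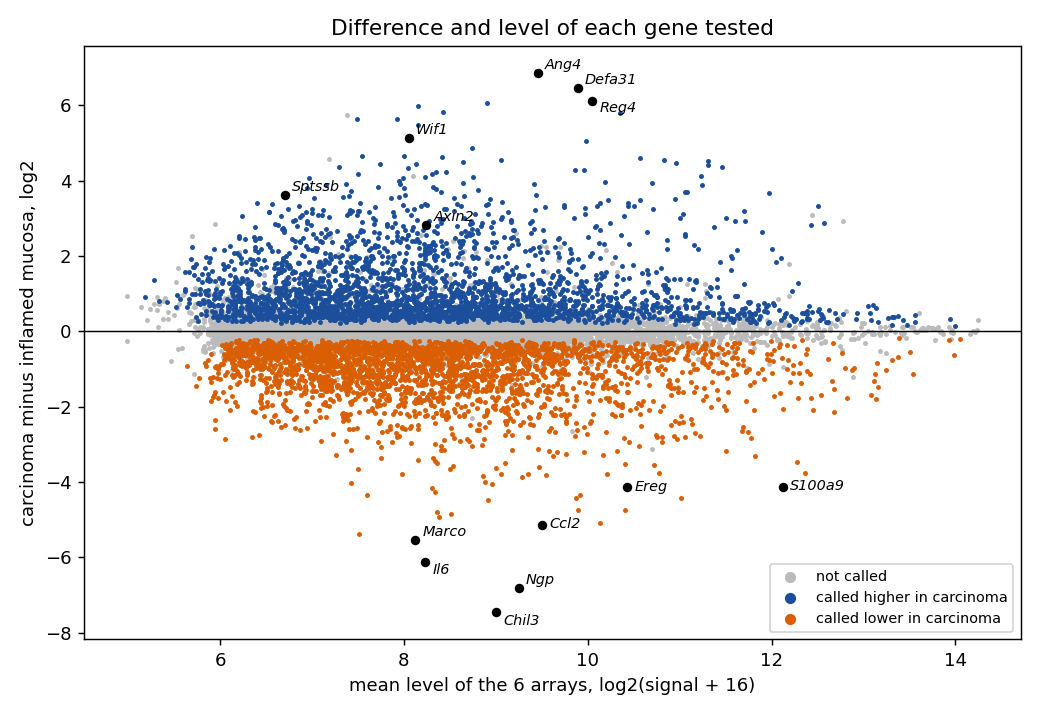
Difference between carcinoma and inflamed mucosa (log2, vertical axis) against the mean level over the 6 arrays (log2(signal + 16), horizontal axis) for each of the 12877 genes tested; blue points were called higher in carcinoma, orange points lower, gray points neither. Increases reach 6.86 (Ang4) and decreases -7.46 (Chil3), and called genes occur at all levels.

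The 12 genes with the largest increases differed in where normal mucosa lay, beside carcinoma for some and beside inflamed mucosa for others. Ang4, an angiogenin with antimicrobial activity, was at 12.94, 12.86 and 12.85 in carcinoma and at 6.27, 5.97 and 5.83 in inflamed mucosa. The groups did not overlap, and the difference was 6.86 ± 0.83 (SE of the fit to all 18 arrays, n = 3 per group, adjusted p = 2.53e-05). Normal mucosa held Ang4 at 10.49 to 14.20, around the carcinoma level. The same placement of normal mucosa beside carcinoma was seen for Reg4, a secreted lectin of goblet and endocrine cells (difference 6.12 ± 0.69), Clca1, a protease of goblet cell mucus (5.79 ± 1.18), Mptx1, a mucosal pentraxin (6.07 ± 1.54), Itln1, an intelectin that binds microbial sugars (5.98 ± 0.86), Sycn, a granule protein (5.07 ± 1.17), Hao2, a peroxisomal oxidase (4.87 ± 1.19), and Smpx (5.64 ± 0.91). A second probe set of Clca1 gave a difference of 3.04.

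Defa31 had another pattern. Its probe set, which may bind transcripts of related alpha-defensins, read 12.24, 14.20 and 12.93 in carcinoma, 6.70, 6.55 and 6.72 in inflamed mucosa and 6.19 to 6.31 in normal mucosa. Of these 3 tissues only carcinoma was high. The difference from inflamed mucosa was 6.46 ± 1.28 (adjusted p = 0.00111), and that from normal mucosa 6.87 ± 1.28 (adjusted p = 0.0311). The latter call was lost without normal replicate 1, 2 or 3 or carcinoma replicate 2 or 3 (adjusted p = 0.0743 to 0.180). Mt4, a metallothionein of stratified epithelia, was at 10.17, 12.05 and 11.81 in carcinoma and at 5.26 to 5.80 in inflamed mucosa. Pnliprp1, a lipase-related protein best known from the pancreas, was at 9.69, 10.85 and 12.14 against 5.22 to 5.79. In both genes normal mucosa lay with inflamed mucosa, at 5.17 to 6.29 for Mt4 and 5.40 to 5.93 for Pnliprp1. The dysplastic lesions of the series, 3 arrays each of low grade at 4 weeks and of high grade at 6 and at 8 weeks, were also high for these genes. In that order the means were 11.19, 12.28 and 11.91 for Defa31, 10.28, 12.35 and 10.69 for Mt4, and 9.30, 11.41 and 10.34 for Pnliprp1. The SD over the 3 arrays at 8 weeks was 3.73 to 4.28, larger than in the other dysplasia groups.

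**Figure D2:**
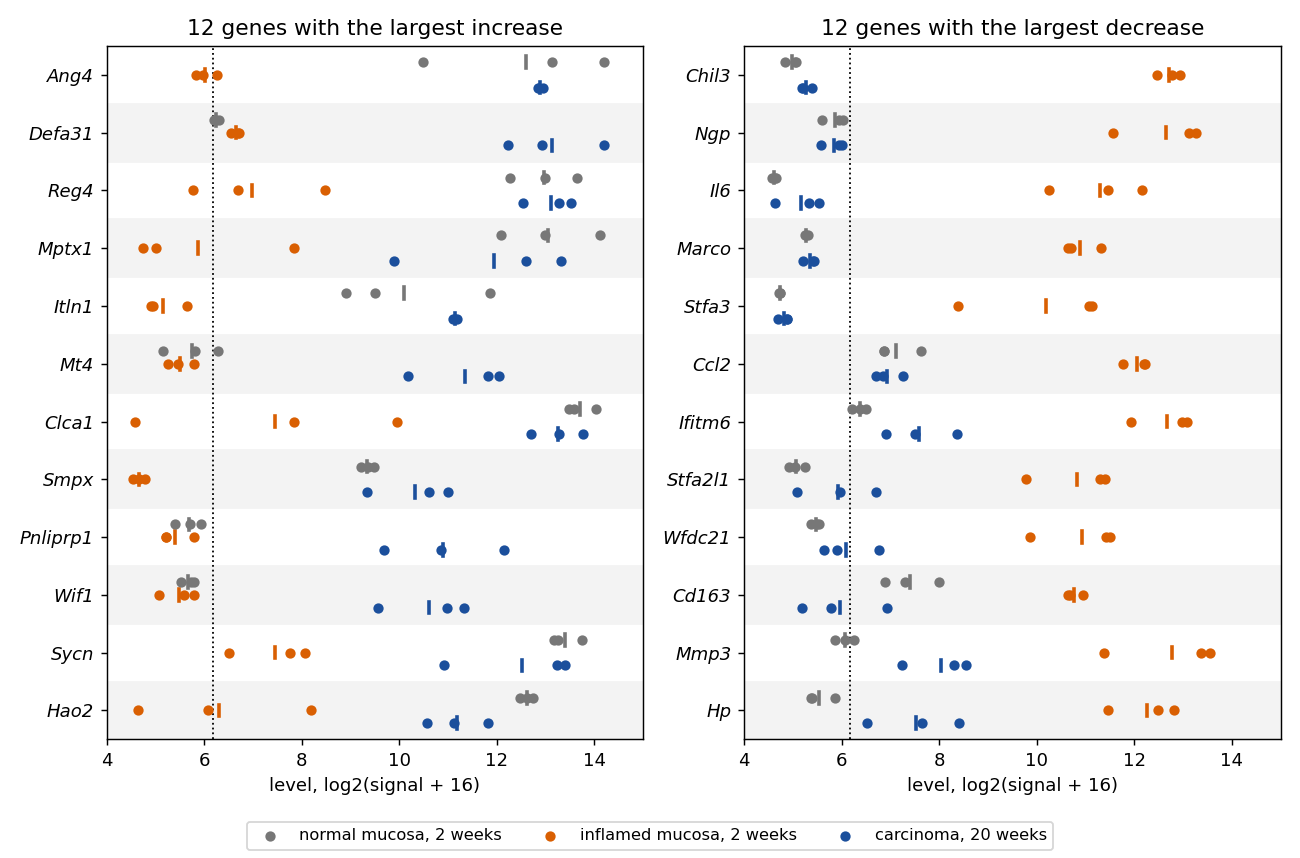
Level on each array (log2(signal + 16), horizontal axis) of the 12 genes with the largest increase (left) and the 12 with the largest decrease (right) in carcinoma against inflamed mucosa; each dot is 1 array, short bars are group means and the dotted line is the median of all signals, 6.18. Of the 3 tissues drawn, Defa31, Mt4, Pnliprp1 and Wif1 are high in carcinoma alone and Chil3, Ngp, Il6, Marco and Stfa3 in inflamed mucosa alone; dysplasia is not drawn.

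Counted by level, 221 genes were called higher with all carcinoma arrays above the median signal and all inflamed arrays below it, and in 31 of these the normal arrays were all below it too. The mirror count was 213 genes called lower, 160 of them with normal mucosa below the median as well. These counts were chosen after the values were seen. Besides Wif1, Pnliprp1 and several genes described below, the 31 held Slc30a2, a zinc transporter (4.17 ± 1.18), Tex15, a germ cell gene (3.80 ± 0.87), Otop1, a proton channel (3.41 ± 0.89), Onecut2, a homeobox factor (1.79 ± 0.49) and Irx4, an Iroquois homeobox factor (1.74 ± 0.24). Tex15 was at 8.02, 9.34 and 9.19 in carcinoma and at 4.91 to 5.17 in inflamed mucosa, with no overlap. Dysplasia at 4, 6 and 8 weeks was also high for Tex15, with means of 7.65, 9.51 and 8.48. The means were 8.83, 10.25 and 9.11 for Slc30a2, 5.8, 7.7 and 7.3 for Otop1 and 6.2, 6.5 and 6.9 for Onecut2. For Irx4 they were 5.35, 5.97 and 5.69, against 6.95 in carcinoma. Sptssb, a small subunit of serine palmitoyltransferase, the first enzyme of sphingolipid synthesis, was at 7.88, 8.80 and 8.86 in carcinoma and at 4.72, 4.80 and 5.16 in inflamed mucosa. It was 3.62 ± 0.46 higher than in inflamed mucosa (adjusted p = 3.49e-05) and 3.83 higher than in normal mucosa (adjusted p = 0.00284), and a second probe set gave 1.60. That call against normal mucosa held without each carcinoma or normal array in turn (adjusted p = 0.0027 to 0.0323). Dysplasia means of Sptssb were 8.1, 8.6 and 8.6 at 4, 6 and 8 weeks, near the carcinoma level.

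Wnt targets and antagonists were higher in carcinoma as a group, and several lay low in both normal and inflamed mucosa. Of 22 measured members of a list of Wnt targets and antagonists, 15 were higher in carcinoma and 0 lower, with a median difference of 2.36, against 21.1% called higher and a median of -0.003 over all genes. The same list had a median of 1.41 for carcinoma minus normal mucosa and -0.25 for inflamed minus normal mucosa. In carcinoma against normal mucosa 0 of its members were called. Wif1, a secreted Wnt inhibitor, was at 9.56, 10.98 and 11.32 in carcinoma, 5.58, 5.79 and 5.07 in inflamed mucosa and 5.52 to 5.78 in normal mucosa. The carcinoma arrays lay above those of both other tissues, with a difference from inflamed mucosa of 5.14 ± 1.26 (adjusted p = 0.00468). The difference of Wif1 from normal mucosa, 4.94 ± 1.26, did not pass (adjusted p = 0.0732). The dysplasia arrays also enter these errors. Dysplasia held Wif1 at 9.27 ± 2.13 (SD, n = 3) at 4 weeks, 11.08 at 6 weeks and 9.89 ± 3.38 at 8 weeks, which takes in the carcinoma levels. Axin2, the scaffold of the beta-catenin destruction complex and a direct target, was at 9.18, 10.17 and 9.63 in carcinoma and at 6.69, 6.77 and 7.01 in inflamed mucosa. Its difference was 2.84 ± 0.70 (adjusted p = 0.00502), with normal mucosa between them at 7.72 to 7.86.

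The ubiquitin ligases Rnf43 and Znrf3, which remove Wnt receptors from the cell surface, were higher by 3.08 ± 0.58 and 2.62 ± 0.56. Mmp7, a protease of Paneth cells and intestinal tumors, was at 10.04, 10.68 and 10.69 in carcinoma against 6.08 to 6.30, a difference of 4.24 ± 1.20 (adjusted p = 0.011). Sox9, a factor of crypt progenitors, was higher by 2.37 ± 0.33 and Ccnd1, cyclin D1, by 1.48 ± 0.26, and normal mucosa lay near carcinoma for both. Myc, a growth factor-responsive transcription factor gene, was higher by only 0.77 ± 0.19 (adjusted p = 0.00505), and by 0.51 without carcinoma replicate 2. Prox1, a homeobox factor, was at 8.19, 9.64 and 9.13 in carcinoma and 5.79 to 5.88 in inflamed mucosa, with dysplasia means of 8.21, 9.31 and 8.84 at 4, 6 and 8 weeks. Prox1, Notum, Nkd1, Sp5 and Tnfrsf19 differed by 2.40 to 3.15 and their arrays did not overlap, while second probe sets gave 1.76 for Prox1 and 0.52 for Tnfrsf19.

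The calls of these 5 genes (Prox1, Notum, Nkd1, Sp5 and Tnfrsf19) were lost without inflamed replicate 1 or 3 or carcinoma replicate 2 or 3, and for all but Tnfrsf19 also without inflamed replicate 2 (adjusted p = 0.0514 to 0.148). That of Ephb3, a receptor that positions crypt cells (0.93), was lost without inflamed replicate 1 (0.0578) or carcinoma replicate 2 (0.0665). The list count of higher genes was 8 without inflamed replicate 1 or carcinoma replicate 2 and 10 without inflamed replicate 2, inflamed replicate 3 or carcinoma replicate 3. Lgr5, the receptor that marks crypt stem cells, was at 7.07, 8.01 and 7.80 in carcinoma and at 5.54 to 5.94 in inflamed mucosa. Its arrays did not overlap, and the difference of 1.83 (95% interval -0.12 to 3.78) did not pass (adjusted p = 0.122). Lef1 (1.10, adjusted p = 0.054) and Apcdd1 (2.36, adjusted p = 0.101) did not pass either. Cd44, an adhesion receptor often listed as a Wnt target, was at 10.21 to 10.72 in carcinoma and 10.54 to 11.28 in inflamed mucosa, and its difference of -0.57 did not pass (adjusted p = 0.115).

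**Figure D3:**
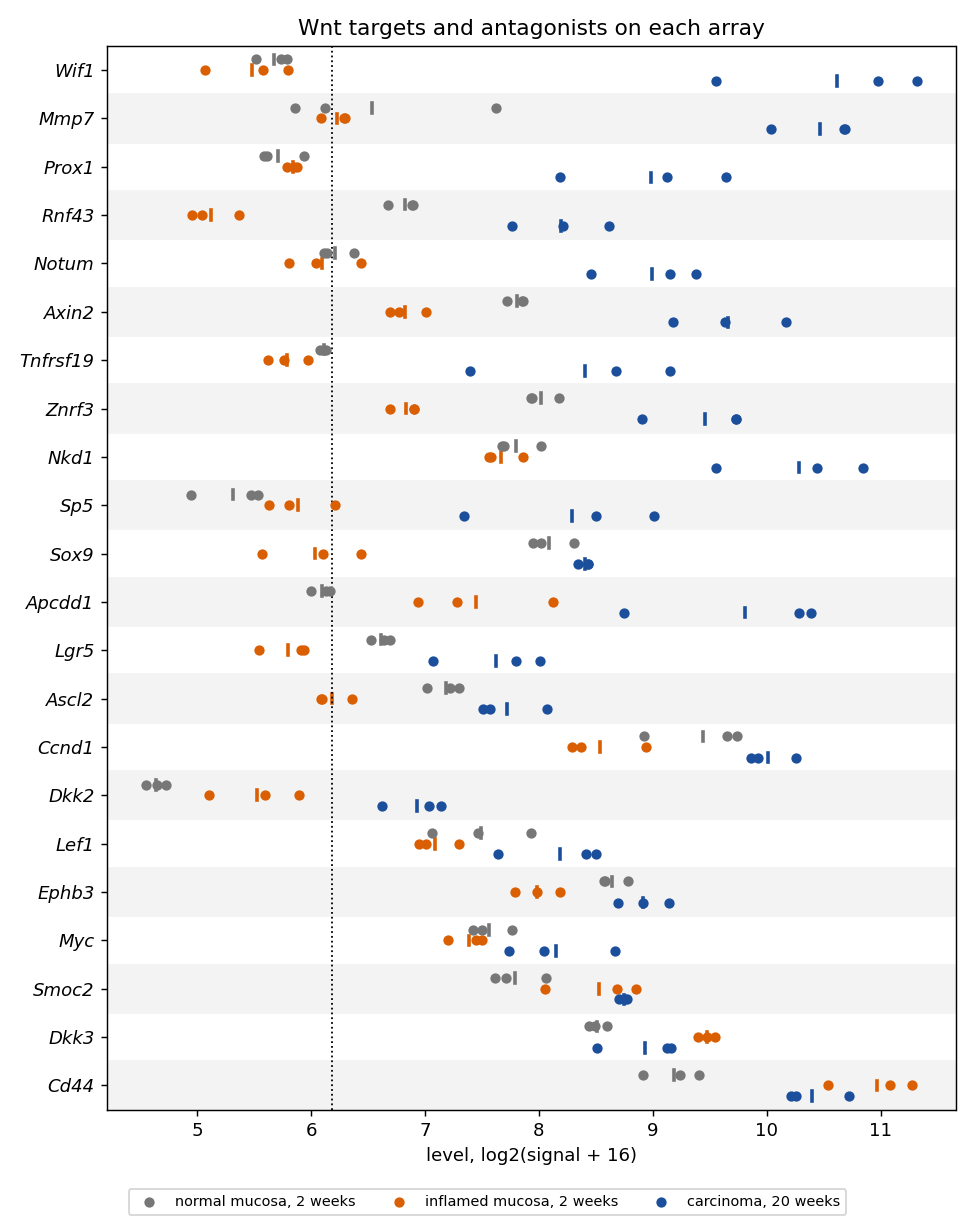
Level on each array (log2(signal + 16), horizontal axis) of the 22 measured Wnt targets and antagonists, ordered by the difference between carcinoma and inflamed mucosa; each dot is 1 array, short bars are group means and the dotted line is the median of all signals. Of the 3 tissues drawn, which leave out dysplasia, Wif1, Prox1, Notum, Nkd1 and Sp5 are high in carcinoma alone, while Cd44 and Dkk3 are no higher in carcinoma than in inflamed mucosa.

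On a list of 14 measured stem and progenitor genes, 6 were higher and 2 lower (median 1.18). For carcinoma minus normal mucosa the list median was 0.42, with 0 members called. The 2 lower genes were Olfm4 and Lrig1, a negative regulator of growth factor receptors (-0.46), and the call of Lrig1 was lost without any inflamed array or carcinoma replicate 2 or 3 (adjusted p = 0.0625 to 0.1555), which left 1 lower. Cftr, the chloride channel of crypt cells, was at 8.80, 7.53 and 8.43 in carcinoma and at 4.46 to 5.58 in inflamed mucosa, a difference of 3.38 ± 0.31 (adjusted p = 3.64e-06). Slc12a2, the basolateral chloride loader, was higher by 1.64 ± 0.26. Ascl2, the transcription factor of crypt base stem cells, was higher by 1.54 ± 0.49 (adjusted p = 0.0218), a call lost without inflamed replicate 1 or 2 or carcinoma replicate 2 (adjusted p = 0.0512 to 0.0767). Olfm4, a secreted glycoprotein of intestinal crypts, went the other way. It was at 5.45, 7.80 and 8.48 in inflamed mucosa and at 4.51 to 4.73 in carcinoma, and the difference was -2.60 ± 0.64 (adjusted p = 0.00483).

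Epithelial genes as a whole were higher in carcinoma, at levels near those of normal mucosa. Of 20 general epithelial genes 20 were called higher, with a median difference of 2.91 (1.95 without inflamed replicate 2). For carcinoma minus normal mucosa their median was -0.21. Cdh1, the adhesion molecule E-cadherin, was at 12.42, 12.31 and 12.29 in carcinoma and at 11.08, 6.68 and 9.48 in inflamed mucosa. The inflamed arrays were all lower and spread widely, and the difference was 3.26 ± 0.69 (adjusted p = 0.00177), or 2.06 without inflamed replicate 2. Esrp1, an epithelial splicing factor (3.82 ± 0.48), Klf5, a crypt transcription factor (3.41 ± 0.42), and Hnf4a, a nuclear receptor of gut epithelium (3.27 ± 0.51), were also higher. Other Hnf4a probe sets ranged from 0.09 to 3.27. The groups of specialised epithelial genes below move with this list, and its part in their differences was not tested. The medians of the Wnt list (2.36) and of the stem and progenitor list (1.18) above lay below 2.91. The part of the epithelial level in those differences was not tested either.

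Goblet cells, which make the mucus layer, showed the largest median of any list, 3.54 (2.71 without inflamed replicate 2), with 16 of 18 members higher and 0 lower. Muc2, the gel-forming mucin, was at 13.94, 13.18 and 13.45 in carcinoma and at 11.71, 6.05 and 9.53 in inflamed mucosa. Its arrays did not overlap and the difference was 4.42 ± 0.91 (adjusted p = 0.00145), or 2.90 without inflamed replicate 2. Fcgbp, a mucus scaffold protein, was higher by 4.55 ± 0.71. Atoh1, the factor that commits cells to the secretory lineage, was at 9.55, 8.51 and 8.73 against 5.55 to 6.17, and its difference of 3.10 ± 0.36 (adjusted p = 1.8e-05) varied little with the inflamed array. Spdef, which acts in goblet cell maturation, was higher by 1.62 ± 0.29. Carcinoma minus normal mucosa had a median of -0.10 over these genes.

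Absorptive colonocyte genes followed in part. Of 23 measured, 14 were higher and 0 lower, with a median of 2.10 (1.37 without inflamed replicate 2), and the median for carcinoma minus normal mucosa was -0.75, with 2 members called lower and 0 higher. Slc9a3, the apical sodium-proton exchanger, was at 9.91, 10.94 and 10.32 in carcinoma and 5.83 to 6.86 in inflamed mucosa, a difference of 4.18 ± 0.55 (adjusted p = 5.27e-05), though a second probe set gave 0.37. Slc5a8, the butyrate transporter, was higher by 4.51 ± 1.04 (adjusted p = 0.00315). Slc26a3, the chloride-bicarbonate exchanger, differed by 3.96 ± 1.38 (adjusted p = 0.0325), a call lost without inflamed replicate 2 or 3 or any carcinoma replicate (adjusted p = 0.0541 to 0.164). Without inflamed replicate 2 it was 2.52. Car4, a carbonic anhydrase of the surface epithelium, was at 10.81, 11.67 and 11.04 in carcinoma and 10.50, 7.62 and 9.94 in inflamed mucosa. Its difference of 1.82 (95% interval -1.23 to 4.87) did not pass (adjusted p = 0.326).

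Antimicrobial genes differed unevenly. Of 13 measured, 6 were higher (Ang4, Defa31, Mptx1, Itln1, Pigr and Pla2g2a) and 1, Lyz2, was lower, with a median of 2.93 (1.45 without inflamed replicate 2). Pigr, the receptor that carries IgA into the lumen, was higher by 4.38 ± 1.06 (adjusted p = 0.0043), and by 2.58 without inflamed replicate 2. Pla2g2a, a bactericidal phospholipase, was at 13.99, 14.08 and 11.47 in carcinoma and 12.07, 5.89 and 9.94 in inflamed mucosa. Its groups overlapped, and its call (3.89 ± 1.47, adjusted p = 0.0463) was lost without inflamed replicate 2 or 3 or carcinoma replicate 1 or 2 (adjusted p = 0.0727 to 0.233). Without inflamed replicate 2 its difference was 2.18. The Lyz2 call was lost without any array but carcinoma replicate 3 (adjusted p = 0.0555 to 0.153). Reg3g and Reg3b, lectins induced by infection and injury, lay above the normal arrays in carcinoma and on 2 of the 3 inflamed arrays. Reg3b was at 9.19, 12.50 and 12.15 in carcinoma and at 11.09, 5.33 and 10.93 in inflamed mucosa, and neither gene passed (adjusted p = 0.223 for Reg3g and 0.386 for Reg3b).

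Endocrine and tuft cell genes, which mark rarer epithelial cells, did not follow the general epithelial list. Of 14 enteroendocrine genes 6 were lower and 0 higher (median -0.50). Sst, somatostatin, was at 7.00, 6.42 and 7.07 in carcinoma, 9.77, 10.60 and 9.56 in inflamed mucosa and 7.47 to 7.82 in normal mucosa. The inflamed arrays were the high ones, and the difference was -3.15 ± 0.32 (adjusted p = 7.03e-06). Scg2, a granin of secretory granules that neurons also make, differed by -2.32 ± 0.30, and the enteric neuron genes described below were likewise higher in inflamed mucosa. Chga, which defines endocrine cells, did not pass (-0.24, 95% interval -1.43 to 0.95). Of 4 tuft cell genes 2 were lower, Dclk1, a kinase (-1.62 ± 0.36), and Alox5 (-1.08 ± 0.25), both of which other cells also make.

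On a list of 11 genes of regenerating and fetal-like epithelium, 3 were higher and 4 lower, against 21.1% and 21.2% of all genes. Krt23, a keratin, was at 7.98, 10.20 and 8.72 in carcinoma, 5.65 to 6.04 in inflamed mucosa and 5.42 to 6.06 in normal mucosa. Dysplasia means were 7.56, 8.60 and 8.30 at 4, 6 and 8 weeks. The difference between carcinoma and inflamed mucosa was 3.13 ± 0.88 (adjusted p = 0.0109), and the call was lost without carcinoma replicate 2 (adjusted p = 0.0551). Krt7, a keratin of simple epithelia, was higher by 2.97 ± 0.67, whereas Ccn1, a matricellular target of YAP, differed by -1.73 ± 0.41. The count of lower genes on the list was 2 without inflamed replicate 3, and the count of higher genes was 1 without probe sets shared by related transcripts. Secreted protease inhibitors were divided in the same way, with 5 of 11 higher and 2 lower. Spink4, an inhibitor made by goblet cells, was higher by 4.52 ± 0.78, and Spink1, a trypsin inhibitor, by 3.71 ± 1.11, or 1.74 without inflamed replicate 2. Wfdc21 (-4.83 ± 1.12) and Wfdc12 (-3.49 ± 0.47), small proteins with a WAP domain, were lower.

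Genes of dividing cells were higher in carcinoma, by small and even steps. Of 21 measured mitosis genes, 20 were called higher and 0 lower. The 21 differences ran from 0.36 to 1.22 around a median of 0.82. Ccnb2 was at 8.36, 8.14 and 7.81 in carcinoma and at 6.96, 6.76 and 6.95 in inflamed mucosa, a difference of 1.22 ± 0.19 (adjusted p = 0.00019). Cdc20, an activator of the anaphase-promoting complex (1.10 ± 0.21), Mad2l1, a spindle checkpoint protein (1.05 ± 0.19), and Ube2c, a ubiquitin-conjugating enzyme of mitosis (1.05 ± 0.20), had similar differences. Normal mucosa lay at the carcinoma level, with a list median of -0.05 for carcinoma minus normal mucosa and -0.87 for inflamed minus normal mucosa. Mki67, the proliferation antigen, was at 10.25, 9.95 and 9.88 in carcinoma and 9.45, 9.47 and 9.04 in inflamed mucosa. Its call (0.71 ± 0.19, adjusted p = 0.00902) was lost without inflamed replicate 3 (adjusted p = 0.0502). Leaving out single arrays also ended other calls of the mitosis list (adjusted p = 0.0525 to 0.12). These were Aurka and Cenpa (4 arrays each), Aurkb and Foxm1 (2 each) and Cdk1 (1).

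DNA replication genes differed less. Of 21 measured, 9 were higher and 0 lower (median 0.36), a count that was 5 without inflamed replicate 3, 6 without inflamed replicate 1 or carcinoma replicate 3 and 2 without carcinoma replicate 2. Rfc3, a clamp loader subunit, was higher by 0.89 ± 0.24, and Mcm7, a subunit of the replicative helicase, by 0.70 ± 0.17. Carcinoma replicate 2 had the highest list mean, 8.68, against 8.17 and 8.27 on the other carcinoma arrays.

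Neutrophil genes had the lowest median of any list, -3.66, with 15 of 17 members lower in carcinoma and 0 higher, against 21.2% lower over all genes. Ngp, a neutrophil granule protein, was at 5.94, 6.02 and 5.58 in carcinoma, 11.56, 13.13 and 13.27 in inflamed mucosa and 5.60 to 6.03 in normal mucosa. Dysplasia held Ngp at 8.98 ± 3.61 at 4 weeks, 5.93 ± 0.27 at 6 weeks and 7.77 ± 2.28 at 8 weeks (SD, n = 3). The carcinoma and normal arrays overlapped, and the difference from inflamed mucosa was -6.81 ± 1.35 (adjusted p = 0.00107). Fpr2, a formyl peptide receptor (-4.41 ± 0.89), and Mmp8, neutrophil collagenase (-4.33 ± 1.01), were lower too. S100a9, a subunit of calprotectin, lay between the other tissues. It was at 8.18, 11.78 and 10.20 in carcinoma, 13.62, 14.44 and 14.47 in inflamed mucosa and 4.97 to 6.29 in normal mucosa, in 3 groups that did not overlap.

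The S100a9 difference from inflamed mucosa, -4.12 ± 1.41 (adjusted p = 0.0294), lost its call without inflamed replicate 2 or 3 or carcinoma replicate 1 or 3 (adjusted p = 0.0599 to 0.123). Its difference of 4.31 from normal mucosa did not pass (adjusted p = 0.137). Cxcr2 (-1.51 ± 0.44) and Csf3r (-1.42 ± 0.41), receptors that define neutrophils, were lower. Their calls were lost without inflamed replicate 3 (adjusted p = 0.0703 and 0.0642), and that of Csf3r also without carcinoma replicate 1 (0.0503). The list count was 8 without inflamed replicate 3, 9 without carcinoma replicate 1 and 10 without inflamed replicate 2. Within carcinoma, the list mean was 6.54, 7.93 and 7.23, lowest in replicate 1.

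Cytokine and chemokine genes had a median of -2.59, with 14 of 22 lower and 0 higher. Il6, which activates STAT3, was at 4.64, 5.33 and 5.54 in carcinoma, 10.25, 11.46 and 12.17 in inflamed mucosa and 4.57 to 4.66 in normal mucosa. The difference of -6.13 ± 0.90 (adjusted p = 0.000124) is 69.9-fold on this scale. Ccl2, which draws monocytes, was at 6.71, 6.84 and 7.26 against 11.78 to 12.22, a difference of -5.13 ± 0.49 (adjusted p = 4.55e-06). Il11, a cytokine of the Il6 family (-4.48 ± 0.73), and Cxcl1, a neutrophil attractant (-4.42 ± 1.07), were lower too. Cxcl1 was unequal among the carcinomas, at 7.20, 9.72 and 9.48. Tnf was near background throughout, at 5.94 to 6.55 in carcinoma and 6.00 to 6.84 in inflamed mucosa, and its difference was -0.06 (95% interval -0.57 to 0.45). Il1b, at 7.26, 9.34 and 8.92 against 10.36 to 12.28, did not pass (adjusted p = 0.0559). The list count was 9 without carcinoma replicate 1.

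Lists of NF-kB and STAT3 genes were lower as well. Of 14 NF-kB feedback genes and targets, 12 were lower and 0 higher (median -0.93). Sod2, mitochondrial superoxide dismutase, was at 11.00, 11.09 and 11.21 in carcinoma and 13.06 to 13.26 in inflamed mucosa, a difference of -2.05 ± 0.22 (adjusted p = 8.64e-06). Icam1, a leukocyte adhesion molecule (-2.01 ± 0.28), and Nfkbie, an NF-kB inhibitor (-1.72 ± 0.32), were lower. Of 17 genes of the STAT3 pathway and acute phase, 12 were lower and 1, Il22ra1, an epithelial receptor of IL-22, was higher (median -1.36). Hp, haptoglobin, was at 6.52, 7.65 and 8.40 in carcinoma, 11.47 to 12.81 in inflamed mucosa and 5.37 to 5.87 in normal mucosa, a difference of -4.74 ± 1.10 (adjusted p = 0.00323). Osmr, the oncostatin M receptor (-2.77 ± 0.32), and Stat3 itself (-1.24 ± 0.10, adjusted p = 1.72e-06) were lower. Saa3, an acute phase protein, lay between the other tissues in carcinoma, at 9.80, 10.63 and 11.19 against 6.81 to 7.38 in normal mucosa. Its difference from inflamed mucosa, -3.47 ± 1.08 (adjusted p = 0.0187), lost its call without inflamed replicate 3 (0.0512) or carcinoma replicate 1 (0.0662).

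Other leading decreases belonged to myeloid cells. Stfa3, a stefin that inhibits cysteine proteases in myeloid cells, was at 4.69 to 4.89 in carcinoma and 8.38, 11.14 and 11.07 in inflamed mucosa, a difference of -5.37 ± 0.86 (adjusted p = 0.000228). Its neighbor Stfa2l1 differed by -4.91 ± 1.04 and Ifitm6, an interferon-induced transmembrane protein gene, by -5.07 ± 1.11. None of these 3 genes overlapped between the groups. Macrophage genes had a median of -1.68, with 14 of 18 lower and 0 higher. Chil3, a lectin of activated macrophages and neutrophils, had the largest decrease of all genes tested that the naming rule allowed. It was at 5.22, 5.20 and 5.40 in carcinoma, 12.46, 12.78 and 12.93 in inflamed mucosa and 4.85 to 5.07 in normal mucosa. Dysplasia held Chil3 at 8.24 ± 3.61 at 4 weeks, 5.45 ± 0.16 at 6 weeks and 7.91 ± 3.02 at 8 weeks (SD, n = 3). The carcinoma minus inflamed difference was -7.46 ± 1.44 (adjusted p = 0.000928). Marco, a scavenger receptor, was at 5.22 to 5.44 against 10.64 to 11.33, a difference of -5.54 ± 0.18 (adjusted p = 2.39e-10), and a second probe set gave -2.83. Cd163, the receptor for haptoglobin and hemoglobin, was at 6.93, 5.79 and 5.19 in carcinoma and 10.65 to 10.95 in inflamed mucosa. Its difference was -4.79 ± 0.38. Cd68 (-2.43 ± 0.33) and Adgre1 (-1.29), which define macrophages, were lower, and Itgax, an integrin of myeloid cells, differed by 0.06. The list mean of the carcinoma arrays, 8.23 to 8.38, was close to that of normal mucosa, 7.82 to 8.25.

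Lymphoid genes stand beside a share of 21.2% called lower over all genes. Of 13 T cell and cytotoxic genes, 4 were lower and 0 higher (median -0.66), and the count was 2 without carcinoma replicate 1. Icos, a costimulatory receptor (-1.80 ± 0.47, adjusted p = 0.00676), and Ctla4, an inhibitory receptor (-1.39 ± 0.28, adjusted p = 0.00137), were lower. Cd3e, which defines T cells, was at 7.30 to 7.92 in carcinoma and 7.79 to 7.88 in inflamed mucosa. Of 15 B and plasma cell genes only Ighm was called, at -2.14 ± 0.69 (adjusted p = 0.0218), and its other probe sets ranged from -2.41 to 1.07. That call was lost without inflamed replicate 2 or 3 or carcinoma replicate 1 (adjusted p = 0.0609 to 0.114), and without carcinoma replicate 1 the difference was -1.42. Of 12 class II presentation genes 2 were lower, Batf3 (-1.21 ± 0.23) and Cd86 (-0.77 ± 0.23), the latter lost without carcinoma replicate 1 (adjusted p = 0.0816).

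Of 20 interferon response genes 1, Bst2, was called lower (-1.22 ± 0.45, adjusted p = 0.0411), and the list median was 0.004. The Bst2 call was lost without any array but carcinoma replicate 3 (adjusted p = 0.0603 to 0.114). Mast cell genes had the largest median of the immune cell lists, 0.50. Of 12, 3 were called higher and 0 lower, against 21.1% and 21.2% of all genes. Mcpt2, a mucosal mast cell protease, was at 7.90, 11.08 and 11.49 in carcinoma and 6.82 to 7.53 in inflamed mucosa. Carcinoma replicate 1 lay close to the inflamed arrays, and the call (3.00 ± 1.09, adjusted p = 0.0391) was lost without any inflamed array or without carcinoma replicate 2 or 3 (adjusted p = 0.0659 to 0.145). The count of genes called higher became 0 in each of those cases. Kit, which defines mast cells with Cpa3 and Mcpt2, had a difference with a 95% interval of -0.46 to 0.45.

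Tissue remodeling genes were lower in carcinoma. Of 17 matrix proteases and inhibitors, 14 were lower and 1, Mmp7, was higher (median -1.80). Mmp3, stromelysin, was at 7.24, 8.32 and 8.55 in carcinoma, 11.39, 13.37 and 13.55 in inflamed mucosa and 5.87 to 6.26 in normal mucosa, with no overlap between any groups. Its difference from inflamed mucosa was -4.74 ± 0.84 (adjusted p = 0.00049), and that from normal mucosa, 1.97, did not pass (adjusted p = 0.233). Adamts4, an aggrecanase (-4.27 ± 0.50), and Timp1, an inhibitor of these proteases (-3.52 ± 0.49), were lower. Of 18 collagen and fibroblast genes, 14 were lower and 0 higher (median -1.36). Basement membrane collagens led them: Col4a1 was at 10.49 to 10.97 in carcinoma and 12.59 to 13.14 in inflamed mucosa, a difference of -2.09 ± 0.24 (adjusted p = 1.62e-05), and Col18a1 differed by -2.42 ± 0.28. Col1a1, the main fibrillar collagen, did not pass (-1.22, adjusted p = 0.0879). Of 11 matricellular genes 9 were lower (median -1.57), among them Tnc, tenascin C (-2.94 ± 0.46), and Thbs1, thrombospondin 1 (-2.56 ± 0.46).

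Vessel and nerve genes went with the matrix. Of 15 endothelial genes, 13 were lower and 1 higher (median -1.48). Emcn, an endothelial sialomucin, was at 6.47 to 6.71 in carcinoma and 8.57 to 9.63 in inflamed mucosa, a difference of -2.58 ± 0.25, and Pecam1, which defines endothelium, differed by -1.54 ± 0.21. Sox17, a transcription factor of endoderm and endothelium, was the exception, at 8.90, 10.53 and 9.92 in carcinoma, 7.60 to 8.06 in inflamed mucosa and 6.76 to 7.00 in normal mucosa. It was 1.95 ± 0.34 higher than in inflamed mucosa (adjusted p = 0.000441) and 2.88 higher than in normal mucosa (adjusted p = 0.00284), and the latter call held without each carcinoma or normal array (adjusted p = 0.0003 to 0.0283). All 10 enteric neuron and glia genes were lower (median -1.57). Vip, a neuropeptide, was at 10.41, 9.36 and 9.99 in carcinoma and 12.75 to 13.26 in inflamed mucosa, a difference of -3.17 ± 0.38, and Uchl1, which defines neurons, differed by -2.94 ± 0.33.

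Smooth muscle genes did not follow: of 13, only Cald1 was called, with a difference of -0.85 ± 0.31 (adjusted p = 0.0386), and it was lost without any array but carcinoma replicate 1 (adjusted p = 0.0588 to 0.127). Myh11, which defines smooth muscle, differed by -0.05 (95% interval -1.16 to 1.06). The general epithelial level differed in the opposite direction to the stromal, vessel, nerve and myeloid lists, at 6.61 to 9.62 in inflamed mucosa and 10.84 to 11.12 in carcinoma, and its part in their differences was not tested.

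**Figure D4:**
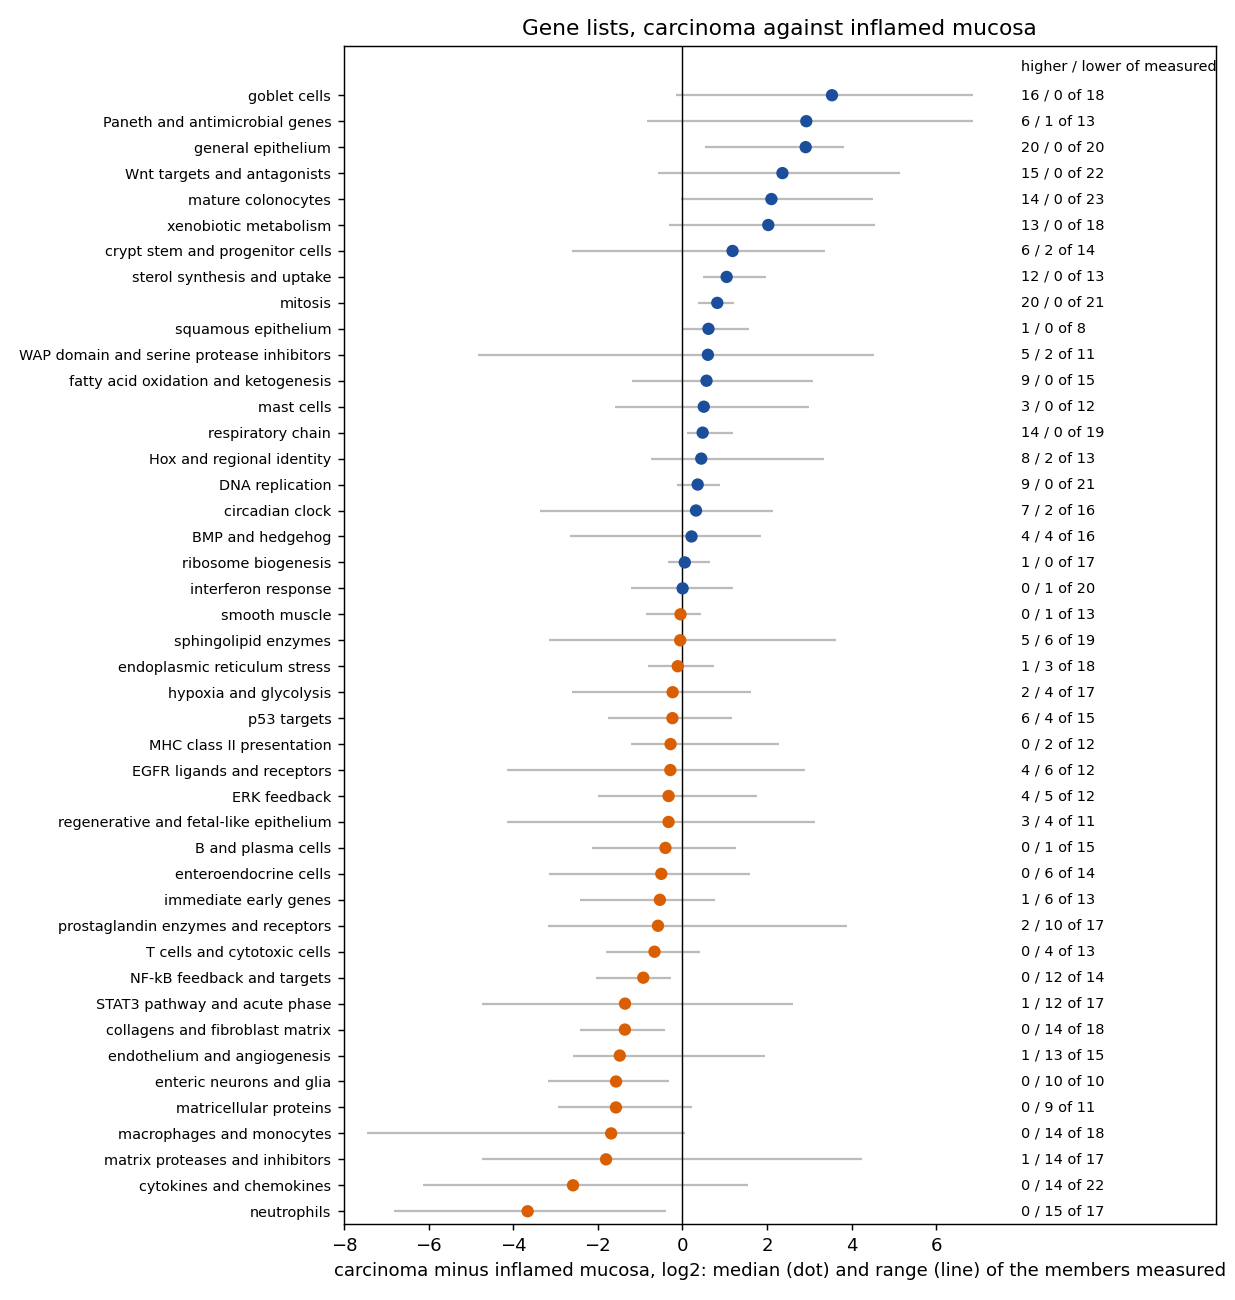
Median difference (dot) and range over measured members (line), carcinoma minus inflamed mucosa on the log2 scale, for the 44 gene lists with at least 8 measured members; numbers at the right give members called higher, called lower and measured. Goblet cells stand at the top with a median of 3.54 and neutrophils at the bottom with -3.66.

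Growth factor genes of the EGF family were divided. Of 12 ligands, receptors and regulators, 6 were lower and 4 higher, against 21.2% and 21.1% of all genes. Ereg, epiregulin, was at 7.42, 8.83 and 8.84 in carcinoma and 11.92, 13.09 and 12.48 in inflamed mucosa, a difference of -4.13 ± 0.79 (adjusted p = 0.00081), and normal mucosa, at 7.75 to 8.32, overlapped carcinoma. Nrg1, neuregulin 1 (-3.07 ± 0.48), and Epgn, epigen (-2.12 ± 0.42), were lower. The receptor Egfr differed by -1.76 ± 0.13 (adjusted p = 7.19e-07), while Erbb3, a receptor of neuregulins found in epithelium, was higher by 2.89 ± 0.40. Tgfa, the ligand TGF-alpha, was at 8.58, 8.96 and 8.73 in carcinoma and 7.28, 5.34 and 6.07 in inflamed mucosa, a difference of 2.52 ± 0.41 (adjusted p = 0.000263). The other Tgfa probe sets gave -0.15 to 0.04. Egf, at 6.23 to 7.08 against 5.55 to 5.74, was higher by 1.14 ± 0.30 at levels near the median signal.

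Feedback genes of the ERK pathway were divided, with 4 of 12 higher and 5 lower, against 21.1% and 21.2% of all genes. Spred1, an inhibitor of Ras signaling, was at 8.77 to 8.96 in carcinoma and 9.70 to 10.00 in inflamed mucosa, a difference of -1.01 ± 0.14 (adjusted p = 8.65e-05). Etv5, an ETS factor, and Dusp4, a nuclear phosphatase of ERK, were higher by 1.77 ± 0.60 and 1.60 ± 0.57 and did not overlap. Both calls were lost without inflamed replicate 1 or 3 or carcinoma replicate 2 or 3, and that of Dusp4 also without inflamed replicate 2 (adjusted p = 0.0653 to 0.121). The list's count of higher genes was 1 without inflamed replicate 1, inflamed replicate 3 or carcinoma replicate 2, and 2 without carcinoma replicate 3. Of 13 immediate early genes 6 were lower and 1 higher, led by Egr1 (-2.42 ± 0.40) and Nr4a1 (-2.39 ± 0.32). Egr1 was at 8.24 to 9.29 in carcinoma, below the normal arrays at 9.51 to 10.24.

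Prostaglandin genes were mostly lower, 10 of 17, with 2 higher. Ptgs2, the inducible cyclooxygenase, was at 6.46, 7.81 and 8.08 in carcinoma and 8.63, 11.18 and 11.07 in inflamed mucosa. Its difference of -2.84 ± 1.03 (adjusted p = 0.0383) lost its call without any array but inflamed replicate 1 (adjusted p = 0.0504 to 0.132). Ptges, the downstream prostaglandin E synthase, differed by -2.91 ± 0.43 (adjusted p = 0.000118), and Alox5ap, which activates arachidonate lipoxygenase, by -3.18 ± 0.70. Hpgd, which degrades prostaglandins, was at 10.98, 9.78 and 9.97 in carcinoma and 7.18 to 7.83 in inflamed mucosa, and was higher by 2.81 ± 0.44 (adjusted p = 0.000203). Of 16 BMP and hedgehog genes 4 were higher and 4 lower, near the 21.1% and 21.2% of all genes. Grem1, a BMP antagonist of fibroblasts (-2.65 ± 0.42), and the ligand Bmp4 (-2.04 ± 0.31) were lower, while Ihh, the hedgehog ligand of colonocytes, and Hhip, a hedgehog-binding protein, were higher by 1.76 ± 0.28 and 1.86 ± 0.40. A second Hhip probe set gave 0.79.

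**Figure D5:**
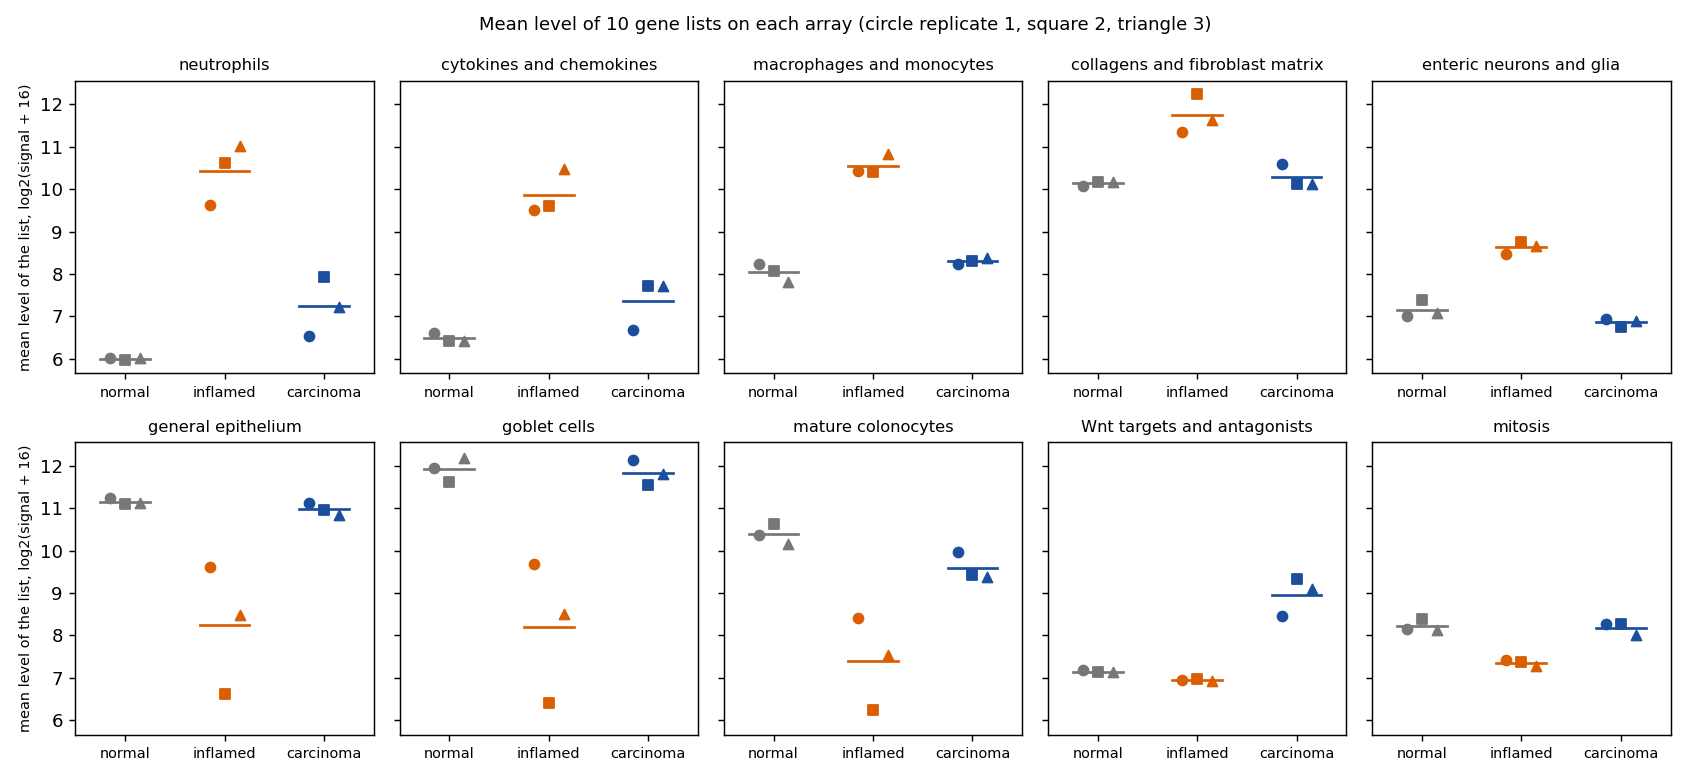
Mean level of 10 gene lists on each array (log2(signal + 16), vertical axis) in normal mucosa, inflamed mucosa and carcinoma; each symbol is 1 array and bars are group means. Inflamed replicate 2 (square) lies lowest for the epithelial lists, and the Wnt list is highest in carcinoma among these 3 tissues, at 8.46 to 9.33; dysplasia is not drawn.

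Metabolic genes of the epithelium were higher in carcinoma than in inflamed mucosa, but not than in normal mucosa. Medians for carcinoma minus normal mucosa were -0.57 for xenobiotic, -0.33 for fatty acid oxidation (1 called lower) and -0.15 for respiratory chain genes. For inflamed minus normal mucosa they were -2.63, -0.89 and -0.69. Of 18 xenobiotic genes, 13 were higher and 0 lower (median 2.03). Ugt2b34, a glucuronosyltransferase, was at 11.63, 11.05 and 11.31 in carcinoma and 8.82, 5.07 and 6.45 in inflamed mucosa, a difference of 4.55 ± 0.62 (adjusted p = 6.46e-05). Of 15 fatty acid oxidation genes 9 were higher and 0 lower, led by Ppargc1a, a coactivator of mitochondrial genes (3.09 ± 0.42), and Hadh, a beta-oxidation enzyme (1.83 ± 0.18). Of 19 respiratory chain genes 14 were higher and 0 lower, with a median of 0.48. Uqcrc2, a core subunit of complex III, was at 11.80 to 12.08 against 10.34 to 11.19, a difference of 1.19 ± 0.17.

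Sterol synthesis genes were higher with little spread. Of 13 genes 12 were higher than in inflamed mucosa (median 1.04), and the median for carcinoma minus normal mucosa was 0.47. Dhcr7, the last enzyme of cholesterol synthesis, was at 10.08, 9.53 and 9.71 in carcinoma and 7.72 to 7.93 in inflamed mucosa, a difference of 1.98 ± 0.20 (adjusted p = 5.72e-06). Idi1, an isomerase of the isoprenoid pathway, was at 9.90 to 10.20, above inflamed (8.42 to 8.75) and normal arrays (9.16 to 9.57), and its difference from normal mucosa, 0.71, did not pass (adjusted p = 0.0693). Of 19 sphingolipid genes 5 were higher and 6 lower, against 21.1% and 21.2% of all genes. Sphk1, which phosphorylates sphingosine, was at 6.44 to 7.16 in carcinoma and 9.63 to 10.32 in inflamed mucosa, a difference of -3.16 ± 0.30 (adjusted p = 3.99e-06), opposite to Sptssb.

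Markers of other cells that the samples could hold were few, and 42.3% of all genes were called. Of 4 adipocyte genes 1, Fabp4, a fatty acid-binding protein that macrophages and capillaries also make, was lower (-2.25 ± 0.22). Alas2, the only measured erythroid gene, was at 5.87, 7.67 and 6.34 in inflamed mucosa and 5.26 to 5.67 in carcinoma, and its call (-1.15 ± 0.37, adjusted p = 0.0222) was lost without inflamed replicate 2 or carcinoma replicate 1 or 3 (adjusted p = 0.0513 to 0.108), with a difference of -0.63 without inflamed replicate 2. Of 3 measured genes of pancreatic acini 1, Cela1, an elastase, was higher (2.56 ± 0.39), with normal mucosa at 12.28 to 12.43 and carcinoma at 11.17 to 12.06. Of 8 squamous genes 1, Lor, was higher (0.61 ± 0.14). The mean level of the squamous list was 6.67, 7.95 and 6.75 in carcinoma, highest on replicate 2. It was 6.26 to 6.55 in inflamed mucosa and 6.39 to 6.54 in normal mucosa. The part of this level on carcinoma replicate 2 in other differences was not tested.

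Genes that passed against normal mucosa in both tissues, without overlap and by at least 2 on the log2 scale in each, were also sought. The naming rule found 1 above normal mucosa and 2 below it. It set no condition on the difference between carcinoma and inflamed mucosa. Plat, tissue plasminogen activator, was at 8.78, 11.60 and 10.01 in carcinoma, 9.71, 8.99 and 9.28 in inflamed mucosa and 6.84 to 7.18 in normal mucosa. Carcinoma and inflamed mucosa overlapped, and their difference was 0.80 (95% interval -0.53 to 2.14, adjusted p = 0.323). Slc37a2, a sugar phosphate transporter, was at 7.97, 6.33 and 6.43 in carcinoma, 6.16 to 6.46 in inflamed mucosa and 8.23 to 10.19 in normal mucosa, a difference of 0.58 (-0.44 to 1.60). Trpm6, a magnesium channel, was at 8.23, 8.23 and 7.33 in carcinoma, 6.66 to 8.04 in inflamed mucosa and 9.47 to 10.95 in normal mucosa, a difference of 0.79 (-0.16 to 1.74). The calls of these 3 genes in carcinoma against normal mucosa, for which they were chosen, were not secure. That of Plat was lost without any carcinoma or normal array but carcinoma replicate 1 (adjusted p = 0.083 to 0.19), and those of Slc37a2 and Trpm6 without normal replicate 1 or 2 or carcinoma replicate 2 or 3 (adjusted p = 0.1135 to 0.19). Without inflamed replicate 1, Trpm6 differed between carcinoma and inflamed mucosa (1.24, adjusted p = 0.0357).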

How the data were processed

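The deposited values are linear MAS5-type signal intensity per probe set on Affymetrix mouse whole-genome arrays. MAS5 is named per the submitters' processing notes. How it was set and which version was run is not given in the sources used here. The deposited table held 45101 probe sets with signals of 3.39 to 24945 and array medians of 55.7 to 57.8. Of these, 64 control probe sets were left out, 34945 carried 1 gene in GEO's platform annotation, 932 several and 9160 none, and 34741 were matched to RefSeq by gene ID. Signals were taken as log2(signal + 16). Probe sets above the table's median on at least 3 of 18 arrays were kept (21653), and for each of 12877 genes the probe set with the highest mean was used. The filter reads all 18 arrays, so a gene high in 1 group could pass through that group alone.

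All 18 arrays were fitted in 1 model with limma 3.58.1 in R 4.3.3 (eBayes with trend and robust settings), and a gene was called at a Benjamini-Hochberg adjusted p below 0.05 over all genes tested. The fit was tested on simulated data. Errors in the text are standard errors of the fitted difference unless named otherwise. The fit shares 1 spread per gene over all groups, so the dysplasia arrays also enter these errors and the p-values. For Chil3, with an error of 1.44, the SD was 0.11 in carcinoma and 0.24 in inflamed mucosa. It was 3.61 in dysplasia at 4 weeks. Replicate 2 of low grade dysplasia at 4 weeks stood apart in a control of RNA quality. Its log2 ratio of 3′ to 5′ signal was 1.63 for Gapdh and 1.51 for actin. On all other arrays the ratios were -0.075 to 0.16 and 0.31 to 0.69. That array entered the errors and the 4-week means, and its part in them was not tested. The labels call the replicates biological but do not say that they are separate animals. The p-values therefore measure the spread between arrays, which may differ from that between animals, and the number of arrays limits the precision. Members and gene lists were chosen with earlier results of these data known. Named genes were the 12 largest increases and 12 largest decreases that passed without overlap (unnamed predicted genes passed over), up to 4 members of each list that passed with the largest difference (or the member with the smallest p), Axin2, Lgr5, Myc, Ptgs2, Il6, Mki67, Muc2 and Car4, and up to 6 genes above and 4 below normal mucosa in both tissues by at least 2 on the log2 scale. Genes given beside these to fill out a list, the Il6 and Ccnb2 promoters and the sets of 31 and 160 genes were chosen after their values were seen. Promoters are those of RefSeq GRCm38.p6.

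The alternatives were other pseudocounts, filters, normalizations and probe set rules, the 6 arrays alone, array weights, no trend, the replicate number as a block, and leaving out each array.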

Additional observations from a re-analysis of the deposited data

How the results depend on the processing

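Of the 174 named genes, 169 were called, 139 kept their call without each carcinoma or inflamed array in turn and 136 under every alternative run. The estimate for 1 gene, Ighm, reversed, to 0.23 (adjusted p = 0.833) without probe sets shared by related transcripts; the cause was not tested. The 2716 genes called higher and 2734 lower became 2080 to 2470 and 2115 to 2747 without single arrays, and 3837 and 3688 with array weights. With the 6 arrays alone, which leaves out dysplasia and normal mucosa, they were 2657 and 2561. Without probe sets of related transcripts they were 2248 and 2341, over 11127 genes, and members called fell from 12 to 7 for the NF-kB list, from 14 to 7 for the respiratory chain and from 6 to 3 (higher) for stem and progenitor genes. With the replicate number as a block the counts were 2603 and 2637. Deviations of same-numbered arrays correlated at 0.139, 0.0806 and 0.0677. These values are weak and cannot tell whether the numbers pair the arrays. Only 3 arrays a group, and signals near background for low genes, limit what could be detected.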

Other observations

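Genes of regional identity, which keep segments of the gut distinct, were mostly higher in carcinoma than in inflamed mucosa, with 8 of 13 higher and 2 lower. The list median was -0.14 for carcinoma minus normal mucosa, with 0 called. For inflamed minus normal mucosa it was -0.63, with 2 called higher and 7 lower. The call of Hoxd10 was lost without inflamed replicate 3 or carcinoma replicate 1 or 3 (adjusted p = 0.0583 to 0.1245). That of Hoxa10 was lost without inflamed replicate 3 (0.05245). Hoxb13 (3.34 ± 0.53), Hoxa9 (2.25 ± 0.33) and Hoxd13 (1.48 ± 0.17), homeobox genes of the posterior body, and Gata6 (1.82 ± 0.23), a transcription factor of gut epithelium, were among the higher ones. Of 16 circadian clock genes 7 were higher and 2 lower, against 21.1% and 21.2% of all genes. The count of higher clock genes was 2 to 6 without single arrays. Dbp, a clock output factor, was higher by 2.14 ± 0.42 and Ciart, a clock repressor, by 0.86 ± 0.16, whereas Nfil3, a repressor also induced in immune cells, differed by -3.36 ± 0.43. The labels used here give no time of day.

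The counts in this paragraph stand beside 21.1% of all genes called higher and 21.2% called lower. Of 15 p53 targets 6 were higher (3 to 4 without single arrays) and 4 lower. Among the lower ones were Plk2 (-1.77 ± 0.27), a kinase, and Fas (-1.35 ± 0.25), a death receptor. Of 17 hypoxia and glycolysis genes 2 were higher, Car9, a carbonic anhydrase (1.63 ± 0.36), and Pdk1, a kinase of pyruvate dehydrogenase (0.73), the latter lost without inflamed replicate 1 or carcinoma replicate 1 or 3 (adjusted p = 0.0559 to 0.1504). On that list 4 were lower, among them Adm, adrenomedullin (-2.60 ± 0.38), and Bnip3, a mitophagy receptor (-1.51 ± 0.30). Of 18 endoplasmic reticulum stress genes 1, Canx, a chaperone, was higher and 3 were lower, and the count of higher genes was 0 without inflamed replicate 1 or 2 or carcinoma replicate 2. The lower ones were Ddit3 (-0.80 ± 0.14), Atf4 (-0.73 ± 0.13) and Dnajb9 (-0.44 ± 0.10). Of 17 ribosome biogenesis genes 1, Dkc1, was higher (0.66 ± 0.17) and 0 were lower.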
